A study of Mus musculus with 6 samples.

Results

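Toll-like receptor and inflammasome genes, 10 in all, were followed in 6 mouse kidneys. They are the receptors Tlr2, Tlr4, Tlr7, Tlr9 and Tlr13, the adaptor Myd88, the sensor Nlrp3, the protease gene Casp1 and the cytokines Il1b and Il18. They were chosen by symbol, and all 10 were found among the 28208 genes shared by the 6 count matrices. Between rejecting and tolerized grafts, none of the 10 passed the edgeR test in any of the 9 cell classes compared. The clearest pattern lay between cell classes: Il1b was highest in neutrophil-like cells, Nlrp3 in neutrophil-like and mast cell or basophil-like cells, and both were low in tubules, whereas Tlr7, Tlr13 and Il18 each had a different order of classes. The widest gap between the grafts was that of Il1b in loop of Henle-like cells, with an adjusted p of 0.0701. Only the rejecting kidneys held enough Il1b there to bring it past the filter on low counts.

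Toll-like receptors bind microbial molecules, and some of them bind products of injured cells. TLR2 and TLR4 sit on the cell surface, where they bind lipoproteins and lipopolysaccharide, whereas TLR7, TLR9 and TLR13 sit in endosomes and bind single-stranded RNA, unmethylated DNA and bacterial ribosomal RNA. All of these receptors use MyD88, which leads to NF-kB and to transcription of genes such as Il1b. NLRP3 is a cytosolic sensor that assembles with the adaptor ASC (gene Pycard) into an inflammasome, in which caspase-1 cleaves the precursors of IL-1β and IL-18. Myeloid cells make IL-1β after a stimulus, whereas IL-18 precursor is also made by epithelia, including kidney tubules. Single-cell RNA counts measure the transcripts alone, and neither caspase activity nor cleaved cytokine was measured here.

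The design compared rejection of a kidney transplant with tolerance to it, and every sample is the whole cell suspension of 1 kidney analyzed by droplet single-cell RNA-seq. The naive group (2 kidneys) was untransplanted kidney of C57BL/6 (B6) mice aged 10 to 12 weeks. In the rejecting group (2 kidneys), kidneys of BALB/c mice aged 6 to 7 weeks had been placed in untreated male B6 recipients whose own kidneys were both removed. The tolerized group (2 kidneys) was the same transplant in recipients that also received BALB/c splenocytes treated with the crosslinker ECDI, 7 days before and 1 day after surgery. Grafts were taken on day 15. Thus naive kidneys differ from grafts in strain and age as well as in surgery. Their matrices also listed other genes than those of the grafts (28692 against 31053). Naive values are therefore given without a test, and the parts of these differences cannot be separated. In a graft the cells of donor and recipient were not told apart.

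The matrices held 8532 to 13378 barcodes and 34874702 to 96803926 UMIs per kidney, and the tolerized libraries were the deepest. After filters and removal of called doublets, 45667 of 60181 barcodes were kept, and 44653 of them lay in the 50 of 59 clusters that received a name. Median mitochondrial shares per kidney were 24.9% and 25.5% in the naive group and 5.38% to 13.7% in the grafts. The naive pair shared 111 barcodes, pairs of grafts shared 18 to 35, and a naive kidney and a graft shared 0 to 4. What this difference between naive and graft libraries reflects, and its part in the levels, was not tested. A cluster was called X-like where at least 3 markers of that cell type marked it. No cluster held the markers of classical monocytes alone: they lay in clusters that also held macrophage markers, which are called macrophage/monocyte-like. Tolerized replicate 2 had the fewest macrophage-like cells of the grafts, with 264 against 902 to 1080, and naive kidneys had 4 and 3. Beside these, 33 and 96 naive cells lay in a cluster that carried macrophage markers but stayed unnamed, described below. Levels below are CPM, the UMIs of a gene per 1000000 UMIs of all genes, summed over the cells of a class in 1 kidney, and are compared within a gene. Kidneys are given in the order rejecting replicates 1 and 2, then tolerized replicates 1 and 2.

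In build GRCm38 all 10 are protein-coding genes. The receptors lie on 4 chromosomes, Tlr2 at chr3:83836272-83841767, Tlr4 at chr4:66827584-66930284, Tlr7 at chrX:167304929-167330558, Tlr9 at chr9:106222598-106226883 and Tlr13 at chrX:106143204-106160493. The adaptor is Myd88 at chr9:119335934-119341411, the sensor is Nlrp3 at chr11:59541568-59566956 and the protease gene is Casp1 at chr9:5298517-5307265. The cytokine genes are Il1b at chr2:129364570-129371139 and Il18 at chr9:50554827-50581840. The 250 bases before the transcription start are shown for 3 members. Il1b and Nlrp3 are shown because their levels lay closest to each other among all pairs of members, and Casp1 because its product joins the product of Nlrp3 to that of Il1b. Sequences are from the RefSeq table of build GRCm38.p6, which held 8 of the 10 members, and read 5′ to 3′ on the strand of the gene. Capitals mark the core GAGGAA, on either strand, of sites bound by PU.1, a transcription factor of myeloid cells.
Il1b, chr2:129371140-129371389, minus strand: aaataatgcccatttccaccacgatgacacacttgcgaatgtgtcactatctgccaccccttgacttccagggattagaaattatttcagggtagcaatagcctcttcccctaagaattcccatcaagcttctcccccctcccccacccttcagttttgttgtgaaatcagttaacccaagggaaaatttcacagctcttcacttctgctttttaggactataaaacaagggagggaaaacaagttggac
Nlrp3, chr11:59542436-59542685, plus strand: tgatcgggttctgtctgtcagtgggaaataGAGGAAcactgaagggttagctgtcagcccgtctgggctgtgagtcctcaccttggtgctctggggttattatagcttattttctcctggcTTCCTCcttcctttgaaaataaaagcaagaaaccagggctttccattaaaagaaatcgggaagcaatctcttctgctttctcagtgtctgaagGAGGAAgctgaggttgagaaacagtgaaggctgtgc
Casp1, chr9:5298267-5298516, plus strand: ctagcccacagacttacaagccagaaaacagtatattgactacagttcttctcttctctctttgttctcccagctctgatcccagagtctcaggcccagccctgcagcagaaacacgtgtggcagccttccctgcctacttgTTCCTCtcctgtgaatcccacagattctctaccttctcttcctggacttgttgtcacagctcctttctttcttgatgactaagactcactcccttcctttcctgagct
The Il1b and Casp1 windows lie outside the genes, directly before their start. The Nlrp3 window lies within the annotated gene, between an upstream start and the start used here, and covers no exon base. The Nlrp3 window printed here held the core 3 times, ending 215, 124 and 31 bases before the start, and the second Nlrp3 window of the table, at the upstream start (chr11:59541319-59541568), held it 0 times. The Casp1 window held it 1 time and the Il1b window did not hold it. Of all 32851 promoter windows of this length, 23.3% held it. None of the 3 windows held the C/EBP letters TTGCNNAA (in 9.56% of all windows), the AP-1 letters TGANTCA (6.75%) or the 10-letter NF-kB motif (1.41%), on either strand. These are matches of letters and were not tested for binding.

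The members differed in which cell class was highest, among the 17 classes with at least 20 cells in each graft. Il1b, Nlrp3, Myd88, Tlr2 and Tlr4 had their highest median in neutrophil-like cells, Tlr13 and Casp1 in non-classical monocyte-like cells, Tlr7 in plasmacytoid dendritic cell (DC)-like cells, and Il18 and Tlr9 in macrophage-like cells. Nlrp3 and Il1b were the most alike pair (Pearson r = 0.92 over 76 sums of class and graft), and Nlrp3 and Il18 were the least alike (r = 0.29). These correlations describe sums that share libraries and depth. Neutrophil-like cells were few and numbered 35 to 43 per graft and plasmacytoid DC-like cells 22 to 46. These small classes could not be ranked for Tlr9, which had 0 or 1 UMIs per graft in each. Their floors of 3 counts were 27.4 to 47.6 and 13.3 to 17.4 CPM, above the 2.24 to 4.81 CPM of macrophage-like cells.

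**Figure D1:**
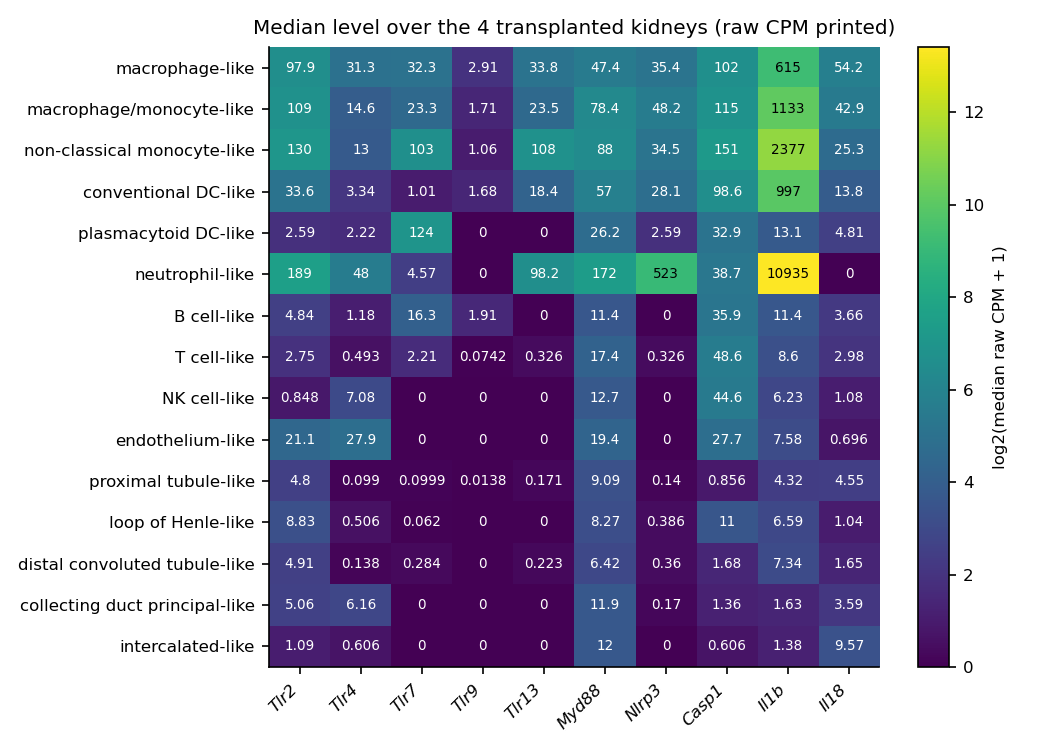
Median level of each member (columns) in 15 cell classes (rows) over the 4 transplanted kidneys. The printed value is the raw CPM and the colour is log2(CPM + 1). Il1b reached a median of 10935 CPM in neutrophil-like cells and 1.38 CPM in intercalated-like cells, and Tlr7 is brightest in the plasmacytoid DC-like and non-classical monocyte-like rows.

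Tlr2, the surface receptor for lipoproteins, was read in all myeloid classes. In neutrophil-like cells its level was 159, 188, 191 and 292 CPM, in non-classical monocyte-like cells 154, 107, 159 and 89.6 CPM, and in macrophage/monocyte-like cells 110, 125, 108 and 76.9 CPM. These ranges overlap between neighbouring classes, so their order is not settled by the spread between kidneys. Conventional DC-like cells were lower, at 35.04, 59.3, 26.5 and 32.2 CPM, with no overlap with the macrophage-like range of 76.3 to 113 CPM. Within conventional DC-like cells both tolerized kidneys lay below both rejecting ones, yet the difference did not pass (log2 fold change -0.55, SE 0.32, adjusted p = 0.947). In macrophage-like cells, which carried 24.9% to 48.1% of all Tlr2 UMIs of a graft, the level was 89.9, 113, 106 and 76.3 CPM, and the groups overlapped.

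Tlr4, the lipopolysaccharide receptor, had its highest median in neutrophil-like cells, at 31.7, 101, 50.2 and 45.7 CPM from 2 to 7 UMIs per graft, too few to be tested. Macrophage-like cells followed, and their range overlaps that of the neutrophil-like cells. Macrophage-like cells held 41.8, 34.9, 27.6 and 23.0 CPM. Both rejecting kidneys were higher, and this was 1 of 2 members there with an unadjusted p under 0.05, although it did not pass after adjustment (log2 fold change -0.52, SE 0.20, adjusted p = 0.823). Endothelium-like cells held 36.6, 27.2, 28.6 and 23.8 CPM, with overlapping groups. In naive kidneys, where few myeloid cells were recovered, endothelium-like cells gave 60.0% and 45.2% of all Tlr4 UMIs, against 1.81% to 17.9% in grafts. Conventional DC-like cells were at 2.12 to 4.24 CPM, from 3 to 5 UMIs per graft.

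Among the endosomal receptors, Tlr7 and Tlr13 parted in the dendritic cells. Tlr7 was at 140, 129, 52.2 and 120 CPM in plasmacytoid DC-like cells, the cells known for RNA sensing and type I interferon, and these values rest on 9 to 27 UMIs. Non-classical monocyte-like cells had 110, 95.5, 129 and 90.6 CPM, and the ranges of both classes overlap. Conventional DC-like cells had 3, 3, 0 and 0 Tlr7 UMIs, which is at or under the floor of 3 counts. Tlr13, the receptor for bacterial ribosomal RNA, was instead present in conventional DC-like cells, at 16.8, 13.4, 19.9 and 21.2 CPM, and had 0 to 2 UMIs in plasmacytoid DC-like cells.

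Tlr13 was the member whose level stood above in tolerized kidneys in most myeloid classes. In macrophage-like cells it was 31.7 and 29.1 CPM in rejecting and 36.0 and 37.0 CPM in tolerized kidneys. In macrophage/monocyte-like cells it was 22.8, 21.0, 37.4 and 24.1 CPM. The tolerized kidneys lay above the rejecting ones without overlap in both of these classes and in conventional DC-like cells, and overlapped in non-classical monocyte-like cells (72.8, 113, 102 and 125 CPM). None of these differences passed, the adjusted p being 0.907, 0.747, 0.975 and 0.987 in that order and the log2 fold changes 0.33, 0.59, 0.56 and 0.35. Naive macrophage/monocyte-like cells held 56.2 and 54.2 CPM from 6 and 5 UMIs. Those cells lay almost all in the monocyte-rich cluster of the class, whose share of the class also differed between grafts. The part of this make-up in the Tlr13 levels was not tested.

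Tlr7 and Tlr9, both known as nucleic acid receptors of B cells, were low there. B cell-like cells held 16.5, 18.0, 8.93 and 16.1 CPM of Tlr7, from 14 to 19 UMIs, and the groups differed by less than their error (log2 fold change -0.38, SE 0.45, adjusted p = 0.960). Tlr9 gave 2, 2, 3 and 1 UMIs in B cell-like cells, so that it was not detectable above the floor of 3 counts at this depth. Tlr13 had 0 UMIs in B cell-like cells of every kidney, which allows up to 1.91 CPM in the deepest sum. The largest Tlr9 counts were those of macrophage-like cells, with 37, 24, 26 and 8 UMIs (4.81, 2.79, 2.24 and 3.02 CPM).

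**Figure D2:**
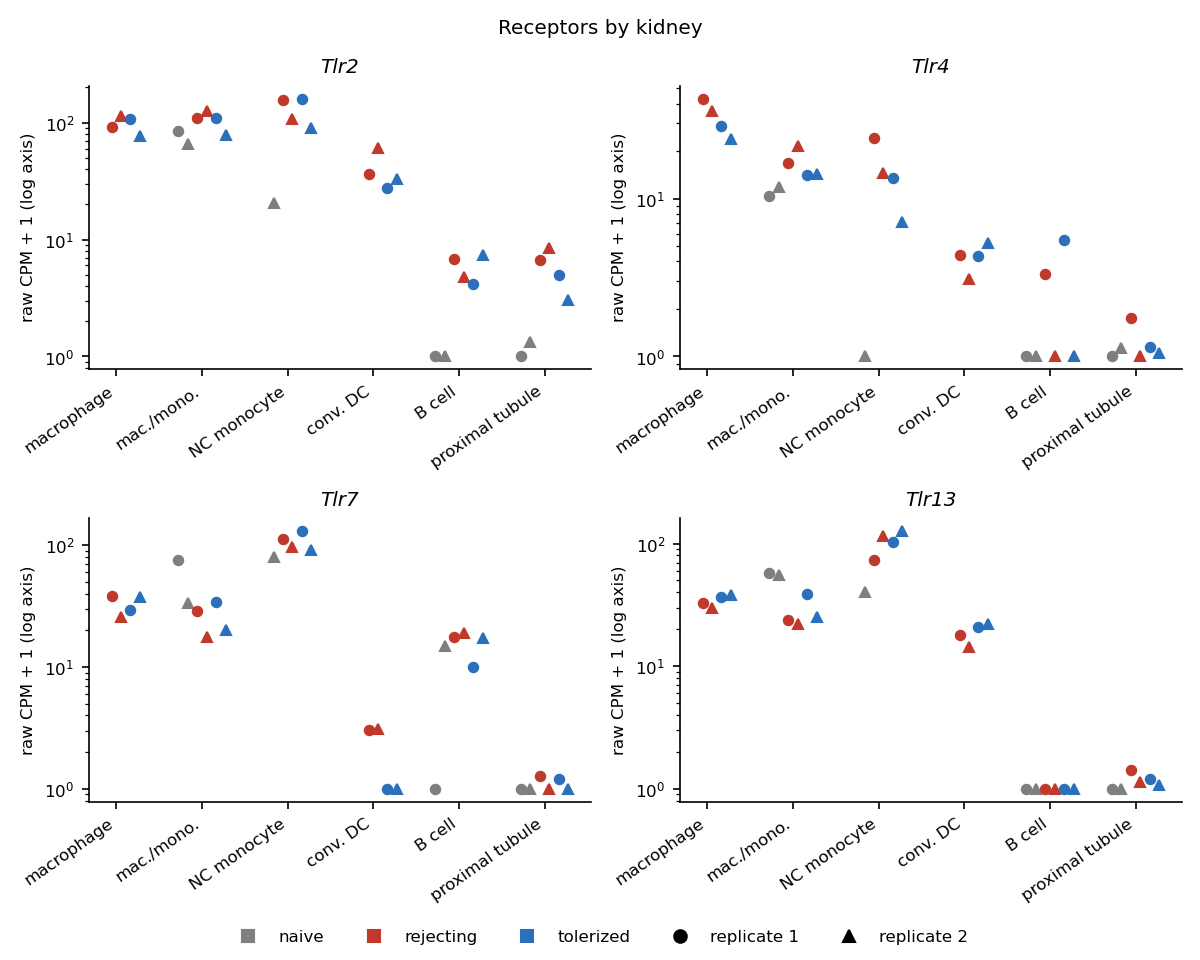
Level of 4 receptors in 6 classes, as raw CPM + 1 on a log axis. Each point is 1 kidney, coloured by group, and kidneys with fewer than 20 cells of a class are left out. Tlr4 in macrophage-like cells stands higher in both rejecting kidneys, and Tlr13 stands higher in both tolerized kidneys in the macrophage-like, macrophage/monocyte-like and conventional DC-like classes.

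Myd88, the adaptor that the receptors share, was read in every class tested. Its level was 159, 174, 171 and 228 CPM in neutrophil-like cells, 71.0, 124, 102 and 74.3 CPM in non-classical monocyte-like cells and 54.6, 58.6, 55.5 and 67.8 CPM in conventional DC-like cells. None of these classes separated the groups. Proximal tubule-like cells did, with 11.2 and 11.1 CPM in rejecting, 7.05 and 6.60 CPM in tolerized and 4.31 and 5.68 CPM in naive kidneys. The difference in proximal tubule-like cells had an unadjusted p under 0.05 and did not pass after adjustment (log2 fold change -0.52, SE 0.21, adjusted p = 0.428).

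Nlrp3, the inflammasome sensor, had its highest levels in 2 small classes. They numbered 35 to 43 neutrophil-like and 4 to 41 mast cell or basophil-like cells per graft, against 264 to 1080 macrophage-like cells. These levels are per UMI of a class and do not give the share of a graft's Nlrp3 UMIs. Neutrophil-like cells held 507, 448, 613 and 539 CPM, and mast cell or basophil-like cells 824, 895, 536 and 1040 CPM, the last from 4 cells. Both classes lay apart from the macrophage/monocyte-like cells, whose 52.1, 67.1, 44.3 and 39.1 CPM were the next in order. Macrophage-like cells (29.4, 49.1, 41.4 and 25.3 CPM) and non-classical monocyte-like cells (27.1, 40.4, 48.7 and 28.5 CPM) overlapped with each other and between groups. In macrophage/monocyte-like cells both tolerized kidneys lay below both rejecting ones (log2 fold change -0.42, SE 0.20, adjusted p = 0.820), whereas in neutrophil-like cells they lay above (0.30, SE 0.34, adjusted p = 0.843). The difference between those classes was not tested.

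Casp1, which encodes caspase-1, was spread most evenly over the leukocytes. It was 165, 173, 137 and 111 CPM in non-classical monocyte-like cells, 114, 170, 115 and 115 CPM in macrophage/monocyte-like cells and 99.7, 122, 89.4 and 97.5 CPM in conventional DC-like cells. Lymphocytes also carried it: T cell-like cells had 36.8, 51.9, 49.4 and 47.9 CPM and B cell-like cells 28.2, 48.4, 28.7 and 43.0 CPM. Nlrp3, in contrast, had 0 to 8 UMIs in T cell-like and 0 to 2 in B cell-like cells. In non-classical monocyte-like cells both tolerized kidneys were lower in Casp1 (log2 fold change -0.40, SE 0.22, adjusted p = 0.981). Proximal tubule-like cells were far lower, with 2.97, 1.28, 0.428 and 0.359 CPM.

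Il1b, the precursor of IL-1β, had the widest range of the members. It was 8528, 9693, 12176 and 13077 CPM in neutrophil-like cells, 2210, 2986, 2545 and 1612 CPM in non-classical monocyte-like cells and 1007, 1792, 1259 and 663 CPM in macrophage/monocyte-like cells. Neutrophil-like cells did not overlap with any other of these classes. Conventional DC-like cells followed with 743, 2001, 1088 and 905 CPM and macrophage-like cells with 358, 943, 754 and 476 CPM, ranges that overlap each other. Per graft, macrophage/monocyte-like cells gave 21.9% to 43.5% of all Il1b UMIs and macrophage-like cells 17.4% to 35.5%. The groups overlapped in each of these classes except the neutrophil-like one, where both tolerized kidneys were higher (log2 fold change 0.51, SE 0.28, adjusted p = 0.621). In macrophage-like cells the fitted log2 fold change was -0.01 (SE 0.42, adjusted p = 1.00), with rejecting replicate 1 the lowest and rejecting replicate 2 the highest.

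Naive kidneys also held Il1b in their few myeloid cells. Their macrophage/monocyte-like cells, 35 and 26 in number, had 1133 and 586 CPM, within the range of the grafts apart from the lower value. Of these naive cells, 35 and 25 lay in the monocyte-rich cluster of the class, whereas most graft cells lay in the macrophage-rich one. The part of this make-up in the levels was not tested. Non-classical monocyte-like cells of naive replicate 2 (23 cells) had 629 CPM, below the 1612 CPM of the lowest graft. A further cluster of 33 and 96 naive cells carried all 8 macrophage markers but was led by genes that include the DC marker Mgl2, so it stays unnamed. That cluster had 1206 and 1658 CPM of Il1b, 38.9 and 86.7 CPM of Tlr2 and 77.8 and 76.3 CPM of Casp1.

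Il18 followed a different course, highest in macrophage-like cells and low in tubules. Macrophage-like cells had 63.7, 60.8, 40.7 and 47.6 CPM and macrophage/monocyte-like cells 48.6, 57.2, 37.1 and 36.2 CPM. Both rejecting kidneys were higher in both classes, with an unadjusted p under 0.05 and no call after adjustment (log2 fold changes -0.44, SE 0.19, adjusted p = 0.849, and -0.44, SE 0.19, adjusted p = 0.794). Non-classical monocyte-like cells had 27.1, 28.1, 23.5 and 10.2 CPM, again lower in tolerized kidneys (log2 fold change -0.59, SE 0.38, adjusted p = 0.981). In proximal tubule-like cells Il18 was at 6.55, 4.56, 4.54 and 4.37 CPM, and at 3.16 and 3.83 CPM in naive kidneys. Those tubules gave 80.5% and 68.2% of all Il18 UMIs in naive kidneys, against 3.14% to 34.1% in grafts. Neutrophil-like cells, highest in Il1b, had 0 Il18 UMIs in 3 grafts and 4 UMIs in tolerized replicate 2.

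**Figure D3:**
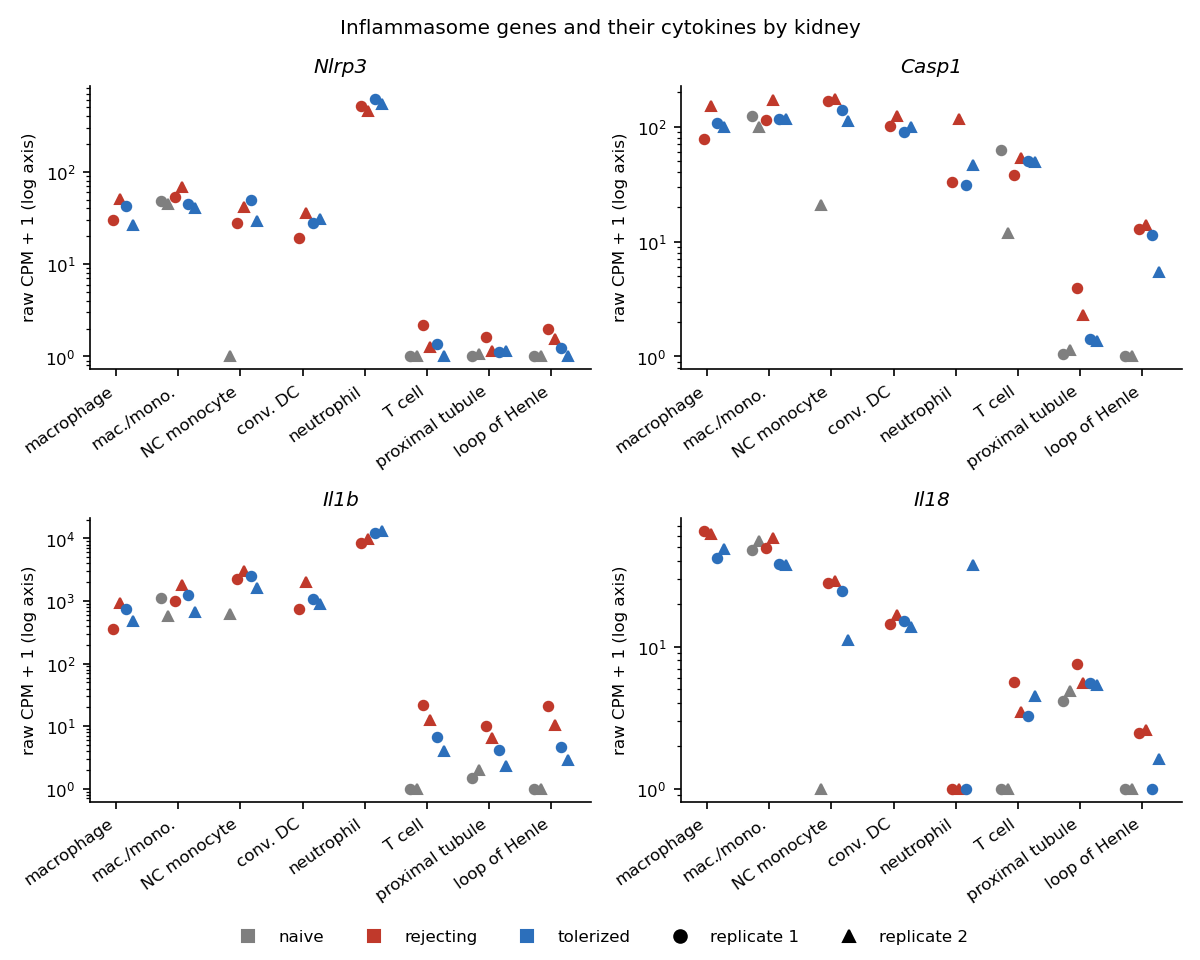
Level of Nlrp3, Casp1, Il1b and Il18 in 8 classes, as raw CPM + 1 on a log axis, with 1 point per kidney and kidneys with fewer than 20 cells of a class left out. Neutrophil-like cells stand apart for Nlrp3 (448 to 613 CPM) and Il1b (8528 to 13077 CPM). Il1b in T cell-like, proximal tubule-like and loop of Henle-like cells stands higher in both rejecting kidneys.

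Rejecting and tolerized grafts were then compared in each class by summing counts per kidney and fitting all genes together. The number of members with enough counts to be tested was 10 in macrophage-like and macrophage/monocyte-like cells, 9 in non-classical monocyte-like, 7 in conventional DC-like, 4 in B cell-like, 5 in proximal tubule-like cells, 4 in those of the loop of Henle, and 3 each in distal convoluted tubule-like and collecting duct principal-like cells. At an adjusted p under 0.05, 0 members were called in each of the 9 classes by edgeR, and 0 by DESeq2. The same edgeR rule called 0.0% of all genes in macrophage-like, macrophage/monocyte-like, non-classical monocyte-like, B cell-like and proximal tubule-like cells, 0.233% in conventional DC-like, 0.0479% in collecting duct principal-like, 0.408% in distal convoluted tubule-like and 0.215% in loop of Henle-like cells. DESeq2 called between 8 of 7147 genes in B cell-like and 169 of 12664 in proximal tubule-like cells. Thus few genes of any kind passed with 2 kidneys per group, and a p that misses the threshold does not show that levels were alike. An unadjusted p under 0.05 was reached by Tlr4 and Il18 in macrophage-like, by Tlr13 and Il18 in macrophage/monocyte-like, by Myd88, Casp1 and Il1b in proximal tubule-like and by Il1b in loop of Henle-like cells, and by 0 members in the other classes.

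The direction of the members can be read from the kidneys that do not overlap. In macrophage-like cells Tlr13 stood above in both tolerized kidneys and Tlr4, Myd88 and Il18 below, 1 and 3 of 10 members, where 12.7% of all genes were above and 23.8% below. In macrophage/monocyte-like cells Tlr13 was above and Tlr2, Tlr4, Nlrp3 and Il18 were below, 1 and 4 of 10, against 11.8% and 23.9% of all genes. In non-classical monocyte-like cells 0 members were above (12.6% of all genes) and Tlr4, Casp1 and Il18 were below, 3 of 9 (19.7%). In conventional DC-like cells Tlr13 was above and Tlr2 and Casp1 were below, 1 and 2 of 7, against 10.4% and 26.1%. In B cell-like cells Tlr7 was below, 1 of 4 members, against 26.6%. In these classes the counts lie near those of all genes, given how few members there are. The median log2 fold change of the members tested was -0.10, -0.31, -0.07, 0.01 and -0.28 in these 5 classes, and that of all genes tested was between -0.01 and 0.00.

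**Figure D4:**
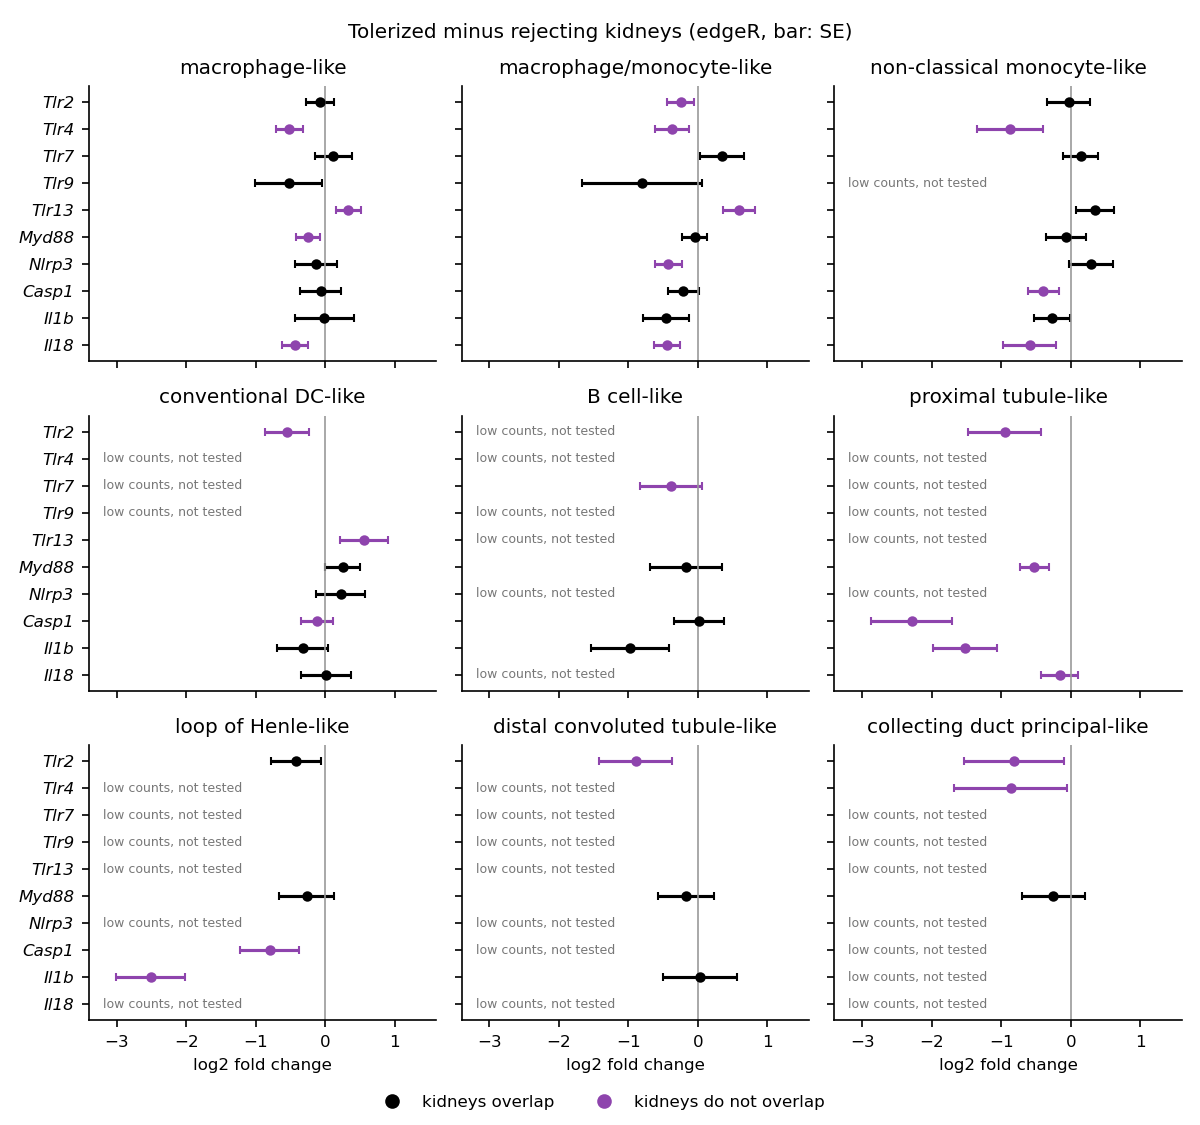
Log2 fold change, tolerized minus rejecting, of each member in the 9 classes compared, with its standard error, from edgeR on 2 kidneys per group. Purple points are members whose rejecting and tolerized kidneys did not overlap. All 5 members tested in proximal tubule-like cells are purple and left of 0, and Il1b in loop of Henle-like cells is farthest from 0, at -2.51.

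Tubular cells gave the widest differences, at low levels. In proximal tubule-like cells, the cells that reabsorb most of the filtrate, all 5 tested members were lower in both tolerized kidneys, where 34.9% of all genes were, and 0 were higher, where 7.45% were. Their median log2 fold change was -0.95, against 0.00 for all genes. Il1b was at 9.04, 5.42, 3.23 and 1.35 CPM and at 0.479 and 0.991 CPM in naive kidneys (log2 fold change -1.53, SE 0.46, adjusted p = 0.285). For Casp1 the log2 fold change was -2.29 (SE 0.58, adjusted p = 0.259), and for Tlr2, at 5.66, 7.42, 3.94 and 2.04 CPM, it was -0.95 (SE 0.53, adjusted p = 0.600). The rejecting kidneys were the higher ones for each, and naive kidneys were below 1 CPM for all 3. For Casp1, both rejecting levels lay above the filter on low counts and both tolerized levels under it. Casp1 counts among the 5 members and in their median with that limit. The proximal tubule-like cells of the kidneys lay in different clusters. Of the 2643 cells of rejecting replicate 1, 1530 lay in a cluster with a median of 1999.5 UMIs that held 15, 9 and 2 cells of the other grafts, and Il1b there was at 16.1 CPM beside 476 CPM of macrophage markers. In the 2 clusters with at least 170 cells of every graft, Il1b was at 3.47, 2.42, 2.02 and 0.722 CPM and at 9.04, 6.34, 3.62 and 2.71 CPM. Without rejecting replicate 1 the log2 fold change of Il1b was -1.08 (adjusted p = 0.790). The part of this make-up in the differences was not tested.

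Loop of Henle-like cells, which dilute the urine and carry Umod and Slc12a1, had Il1b at 20.1, 9.59, 3.59 and 1.86 CPM, from 41, 18, 15 and 15 UMIs. Naive kidneys had 0 UMIs, which allows up to 2.29 and 3.98 CPM. Both rejecting kidneys lay above both tolerized ones (log2 fold change -2.51, SE 0.50, adjusted p = 0.0701). Il1b entered this test through the counts of the rejecting kidneys alone, since the tolerized and naive levels lay under the filter on low counts. Casp1, at 11.8, 12.8, 10.3 and 4.47 CPM, was also lower in both tolerized kidneys (-0.79, SE 0.43, adjusted p = 0.777), so that 2 of 4 members were below without overlap, against 17.9% of all genes. Tlr2, at 8.81, 14.9, 8.85 and 8.56 CPM, overlapped. Il1b passed without the filter on low counts (adjusted p = 4.33e-06), with the replicate number as a block (0.0213) and without rejecting replicate 2 (0.00813). With called doublets kept, its log2 fold change was -1.01 (adjusted p = 0.743), and without rejecting replicate 1 it was -1.82 (0.592). The share of all genes that passed under these settings is not given here. A cluster with a median of 1288 UMIs held 495 of the 586 cells of rejecting replicate 1, against 155 of 262, 200 of 375 and 259 of 575 in the other grafts. Il1b was at 32.4, 26.9, 14.6 and 10.0 CPM within it and at 11.6, 5.35, 1.44 and 1.09 CPM within the other loop of Henle-like cluster of the grafts. Il1b in the distal convoluted tubule-like class was at 9.596, 5.68, 5.51 and 9.01 CPM, with overlapping groups (log2 fold change 0.03, SE 0.54, adjusted p = 0.994); Tlr2 alone was below there, 1 of 3 members against 19.6% of all genes. Collecting duct principal-like cells had Tlr2 and Tlr4 below, 2 of 3 against 21.1%.

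Macrophage markers moved with Il1b in these tubules. The 8 macrophage markers summed in loop of Henle-like cells to 462, 192, 42.1 and 24.3 CPM and to 246, 62.6, 40.6 and 15.7 CPM in proximal tubule-like cells, and all 8 had UMIs in each of these sums except Mrc1, at 0 in loop of Henle-like cells of tolerized replicate 1. The order of the grafts was the same as for Il1b in both classes. Il1b gave 43.5, 49.9, 85.2 and 76.5 UMIs per 1000 macrophage-marker UMIs in loop of Henle-like cells and 36.8, 86.6, 79.5 and 86.4 in proximal tubule-like cells, and 48.6, 85.4, 73.6 and 82.3 in the sum of all leukocyte classes. In tubules the ratio thus ranged from 36.8 to 86.6, and in leukocytes from 48.6 to 85.4. For neutrophils, the 6 markers summed in loop of Henle-like cells to 22.5, 2.67, 1.20 and 1.49 CPM, with 2 to 4 of the 6 seen and Mmp9 at 0 in all 4 grafts. In tolerized replicate 2, in the distal convoluted tubule-like class, where Il1b was at 9.01 CPM, all 6 were seen and summed to 37.7 CPM, against 2.20 to 9.03 CPM in the other grafts. The part of these markers' cells in the Il1b values was not tested.

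Tlr2 and Casp1 did not keep that ratio. Tlr2 gave 19.1, 77.6, 210 and 352 UMIs per 1000 macrophage-marker UMIs in loop of Henle-like cells, where leukocytes gave 6.17 to 6.96. Casp1 gave 25.5, 66.5, 244 and 184 in loop of Henle-like cells and 7.41 to 13.1 in leukocytes. Both were thus higher per macrophage marker in the loop of Henle-like cells of every graft than in leukocytes. In loop of Henle-like cells with no UMI of any macrophage marker, Tlr2 was at 12.0, 14.1, 10.1 and 10.0 CPM. Il1b in those cells was at 27.4, 8.83, 3.50 and 2.36 CPM and fell below the count filter, so it was not tested. In proximal tubule-like cells without such a UMI, which were 822 of 2643, 767 of 1088, 2486 of 3465 and 1817 of 2287 cells, Il1b was at 8.10, 5.26, 3.17 and 1.43 CPM (log2 fold change -1.37, SE 0.48, adjusted p = 0.399). These cells were chosen after the values of all cells were seen. The choice does not remove free macrophage RNA, whose part in the tubular values was not tested.

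**Figure D5:**
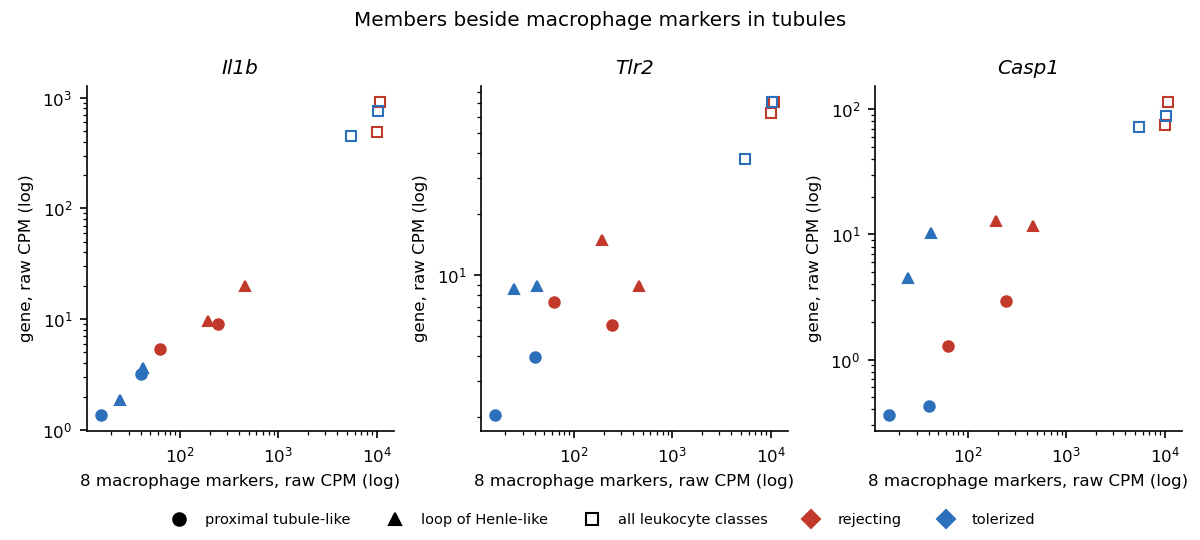
Level of Il1b, Tlr2 and Casp1 against the summed level of 8 macrophage markers, both as raw CPM on log axes, with 1 point per graft and class. Il1b in tubules rises with the markers on a line that runs on towards the leukocyte points, whereas Tlr2 in loop of Henle-like cells stays between 8.56 and 14.9 CPM while the markers range from 24.3 to 462 CPM.

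T cell-like cells showed the same order of kidneys, in a class added after the planned ones. Il1b there was at 20.9, 11.6, 5.64 and 3.05 CPM, lower in both tolerized kidneys (log2 fold change -1.70, SE 0.38, adjusted p = 0.373), and passed without tolerized replicate 1 (0.0159). Of the 3283 T cell-like cells of rejecting replicate 1, 1911 lay in a cluster whose cells had 913 UMIs in the median, 19.7% of them mitochondrial, and 11.6% of whose barcodes had been called doublets. That cluster held 125, 39 and 51 cells of the other grafts, and its part in the Il1b values was not tested. This class had Tlr2 and Il1b below without overlap, 2 of 6 tested members, where 31.1% of all genes were below, 11.3% above and 0.0% called. The 8 macrophage markers summed to 616, 120, 67.1 and 36.1 CPM in the same T cell-like cells, and their part in the Il1b values was not tested. In neutrophil-like cells, also added later, Tlr2, Nlrp3 and Il1b stood above in both tolerized kidneys, 3 of 4 tested members, where 18.9% of all genes did and 0.145% were called. In endothelium-like cells Tlr2, at 22.0, 30.2, 20.2 and 11.1 CPM, was below in both tolerized kidneys, 1 of 4 tested members, where 17.9% of all genes were and 0.0% were called. In plasmacytoid DC-like cells Tlr7, the 1 member tested, was below, where 20.8% of all genes were and 0.862% were called. Casp1 alone was tested in NK cell-like cells and no member in intercalated-like cells, with 0 calls against 0.0419% and 0.0137% of all genes. In B cell-like cells the macrophage markers summed to 534, 155, 61.3 and 43.0 CPM beside 28.2, 11.4, 11.5 and 5.37 CPM of Il1b.

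The wider pathway was read from 72 further genes, listed by role. Of these, 64 were tested in macrophage-like and in macrophage/monocyte-like cells, 49 in non-classical monocyte-like, 53 in conventional DC-like, 37 in B cell-like, 50 in proximal tubule-like, 37 in collecting duct principal-like, 34 in distal convoluted tubule-like and 36 in loop of Henle-like cells. In the 9 classes edgeR called 0 as higher in tolerized kidneys and 1 as lower, Ly86 in loop of Henle-like cells, the class in which 0.215% of all genes were called. DESeq2 called 1 as higher, Cd36 in macrophage/monocyte-like cells, and 3 as lower, Ly86 in loop of Henle-like and in proximal tubule-like cells and Nfkbia in proximal tubule-like cells. Of all genes, DESeq2 called 32 of 10252 in macrophage/monocyte-like, 36 of 9747 in loop of Henle-like and 169 of 12664 in proximal tubule-like cells. In the same classes edgeR called 0, 21 and 0 genes. Ly86 encodes MD-1, the partner of the receptor CD180. Its level in loop of Henle-like cells was 15.7, 10.7, 0.239 and 0.745 CPM, with 0 UMIs in naive kidneys, and both rejecting kidneys were far above (log2 fold change -4.44, SE 0.60, adjusted p = 0.0217). Ly86, too, entered this test through the counts of the rejecting kidneys alone. It did not pass without rejecting replicate 1 (adjusted p = 0.128), tolerized replicate 1 (0.202) or tolerized replicate 2 (0.220). In proximal tubule-like cells Ly86 was at 7.45, 3.71, 0.999 and 0.580 CPM (log2 fold change -2.67, SE 0.49, adjusted p = 0.252 by edgeR and 0.00437 by DESeq2). Macrophage-like cells had 474 to 1130 CPM of Ly86, and in loop of Henle-like cells without a macrophage marker UMI it was at 15.4, 4.42, 0.389 and 0.909 CPM and was not tested.

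Among the accessory genes, Cd36, a scavenger receptor that works with TLR2, had the smallest p of those higher in tolerized kidneys. In macrophage/monocyte-like cells it was 30.6, 31.0, 67.1 and 79.0 CPM (log2 fold change 1.33, SE 0.20, adjusted p = 0.434 by edgeR and 0.00428 by DESeq2). In macrophage-like cells it was 16.0, 24.6, 31.3 and 47.9 CPM (log2 fold change 1.00, SE 0.30, adjusted p = 0.788), passing without the filter on low counts (0.00359) and without rejecting replicate 2 (0.0424). In both classes the kidneys did not overlap. Hsp90b1, the chaperone of Toll-like receptors, was lower in both tolerized kidneys in conventional DC-like cells, at 534, 469, 258 and 264 CPM (log2 fold change -0.83, SE 0.22, adjusted p = 0.298). The same held, without a call, in macrophage-like (802, 680, 415 and 509 CPM) and B cell-like cells (410, 454, 196 and 288 CPM). Neutrophil-like and plasmacytoid DC-like cells were also lower without overlap, and the remaining classes are not given here.

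Of the inhibitors of the pathway, 0 were called by edgeR in the 9 classes under the chosen settings. Tnfaip3, which encodes the deubiquitinase A20, was at 45.9, 81.3, 32.0 and 32.5 CPM in macrophage-like cells (log2 fold change -0.91, SE 0.28, adjusted p = 0.788) and at 7.24, 7.42, 1.83 and 2.87 CPM in proximal tubule-like cells (-1.43, SE 0.34, adjusted p = 0.252). Without the filter on low counts Tnfaip3 passed in macrophage-like (adjusted p = 0.00474), proximal tubule-like (0.00361), distal convoluted tubule-like (0.00268) and loop of Henle-like cells (0.0201), and in macrophage-like cells also without rejecting replicate 1 (0.0114). Nfkbia, which encodes the inhibitor of NF-kB, was at 723, 821, 552 and 443 CPM in non-classical monocyte-like cells (-0.58, SE 0.22, adjusted p = 0.869). In proximal tubule-like cells it was at 64.6, 65.6, 41.2 and 34.8 CPM (-0.60, SE 0.15, adjusted p = 0.258 by edgeR and 0.0481 by DESeq2), and in loop of Henle-like cells it passed without the filter (0.0267). Of the 5 inhibitors, 5 were tested in macrophage-like cells and 4 of them had a negative log2 fold change, with a median of -0.21. Irak2, a kinase below MyD88, was lower in both tolerized kidneys in non-classical monocyte-like cells, at 63.5, 68.5, 36.1 and 30.5 CPM (-0.93, SE 0.24, adjusted p = 0.561).

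Of the induced cytokines, 0 were called by edgeR under the chosen settings. Il12b, a subunit of IL-12, was at 22.1, 3.16, 2.02 and 1.66 CPM in macrophage/monocyte-like cells, where rejecting replicate 1 stood apart (log2 fold change -2.67, SE 0.89, adjusted p = 0.629), and it passed without rejecting replicate 2 (0.00952). In conventional DC-like cells Il12b passed without tolerized replicate 1 (adjusted p = 0.0106, and 0.999 with all kidneys). Tnf was higher in both tolerized kidneys in conventional DC-like cells, at 31.7, 20.5, 62.1 and 33.1 CPM (log2 fold change 0.97, SE 0.36, adjusted p = 0.645), and passed without tolerized replicate 2 (0.0439).

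Of the inflammasome sensors and partners, 0 were called by edgeR in the 9 classes under the chosen settings. Of 13 sensors and partners, 13 were tested in macrophage-like cells, with a median log2 fold change of -0.07, and 13 in macrophage/monocyte-like cells, with a median of -0.07. Pycard and Il1rn are given here by choice after their values were seen. In proximal tubule-like cells Pycard was at 20.6, 9.84, 5.77 and 6.58 CPM (log2 fold change -1.14, SE 0.32, adjusted p = 0.269) and passed without the filter and without rejecting replicate 2. In macrophage-like cells Pycard, which encodes ASC, was at 382, 405, 305 and 252 CPM (log2 fold change -0.43, SE 0.17, adjusted p = 0.831). Il1rn, which encodes the antagonist of the IL-1 receptor, was at 116, 118, 104 and 69.4 CPM in macrophage/monocyte-like cells (-0.35, SE 0.21, adjusted p = 0.895), the same cells that held 663 to 1792 CPM of Il1b. The 6 genes of the IL-1 family tested in those cells all had a negative log2 fold change, with a median of -0.45, and 0 of them had an unadjusted p under 0.05.

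The genes whose levels lay nearest to each member were found over 76 sums of 21 classes and 4 grafts, among 14251 genes. Nlrp3 lay nearest to Ptgs2 (Pearson r = 0.95), Ccl6 (0.95) and Acod1 (0.94), and Il1b to Igsf6 (0.94), Nlrp3 (0.92) and Ccl6 (0.91). For Tlr13 they were Sirpb1c (0.93), Sirpb1b (0.93) and Pilrb2 (0.92), and for Casp1 Hcls1 (0.93), Elmo1 (0.90) and Fam111a (0.89). Tlr7 lay nearest to Cd180 (0.84), and Tlr2 to Sirpb1b (0.86), a paralogue of Sirpb1c whose reads the counting could share with it. The nearest genes were less close for Tlr4 (Tbkbp1, 0.84), Tlr9 (Rspo1, 0.80) and Il18 (Tlr8, 0.79), and Myd88 lay nearest to Il1b (0.88). These values describe how alike the levels were over sums that share libraries, and carry no test.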

How the data were processed

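Whole-kidney suspensions of 6 kidneys were analyzed on the 10x Chromium. The authors deposited, per kidney, a matrix of raw UMI counts per gene and barcode written by Cell Ranger 3.0.1 per the file headers, with reads aligned to mm10. Naive and graft matrices listed 28692 and 31053 genes, and the 28208 shared ones were used.

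Barcodes under 500 UMIs, under 250 genes or over 50% mitochondrial UMIs were dropped. Doublet scores came from Scrublet, whose own threshold called as few as 0 in a library, so the highest scores were removed at 0.8% per 1000 cells. Cells were clustered with scanpy 1.11.5 and leidenalg 0.10.2 (2500 variable genes without the members and pathway genes, 40 components, 20 neighbours, resolution 1.5). A cluster was named from at least 3 markers seen in at least 10% of its cells and at least 2-fold enriched. A cluster with all 6 classical monocyte markers also held 3 macrophage markers. By the rule fixed for clusters with at least 3 markers of both, it was named macrophage/monocyte-like. The planned comparison of classical monocytes thus has no fit.

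UMIs were summed per kidney and class with at least 20 cells per graft. They were tested with edgeR 4.0.16 (TMM, filterByExpr, quasi-likelihood test, Benjamini-Hochberg over all genes tested, threshold 0.05). Leukocyte classes were fitted on the 4 grafts and renal classes on all 6 kidneys. The scripts were tested on simulated data. Alternatives were DESeq2 1.42.0, its size factors, no filter, a replicate block, each kidney left out, resolution 0.8, a minimum of 1000 UMIs, doublets kept, and a mitochondrial limit of 20%. All members were named. Of the pathway genes, those called in a class were named or, where none was, some of the 2 with the smallest p in each direction. Members, markers and lists were chosen with earlier results of these data known. Comparisons in T cell-like, NK cell-like, neutrophil-like, plasmacytoid DC-like, endothelium-like and intercalated-like cells, and tubular cells without macrophage marker UMIs, were added after seeing the data. The labels do not say whether replicates came from separate recipients, so p-values measure the spread between these samples. Floors are 3 counts and cover counting error only.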

Additional observations from a re-analysis of the deposited data

Results flagged for a closer look

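Members that stood above in both tolerized kidneys in neutrophil-like cells and below in both in another class drew attention. None of these differences between classes was tested, and the neutrophil-like class rests on 35 to 43 cells per graft and was added after the planned classes were seen. The values below are the gap between the log2 fold changes of the 2 classes. For Tlr2 the gap to neutrophil-like cells was 0.94 for T cell-like, 0.77 for macrophage/monocyte-like, 1.07 for conventional DC-like, 1.18 for endothelium-like, 1.33 for collecting duct principal-like, 1.41 for distal convoluted tubule-like and 1.47 for proximal tubule-like cells. For Nlrp3 it was 0.72 for macrophage/monocyte-like cells. For Il1b it was 2.21 for T cell-like, 2.03 for proximal tubule-like and 3.02 for loop of Henle-like cells.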

How the results depend on the processing

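With 2 kidneys per group, leaving out 1 kidney leaves a lone sample that is assumed to vary like the others, and genes below the count filter were not tested. The count of members called was 0 in every class under the chosen settings. It was 1 in loop of Henle-like cells (Il1b) without the filter on low counts and with the replicate number as a block, and ranged from 0 to 1 when 1 kidney was left out, the 1 being without rejecting replicate 2. It was 2 in proximal tubule-like cells (Casp1 and Il1b) without the filter and 1 in T cell-like cells (Il1b) without tolerized replicate 1. The share of all genes called under each of these settings is not given here, for members or for pathway genes. Without that share beside them, such passes are not read as particular to the genes named. Without the filter the log2 fold change of Il1b in loop of Henle-like cells was -2.47, against -2.51 with it. The cause of these shifts was not tested. Same-numbered kidneys deviated from their group means with correlations of -0.20 to 0.12 over the classes. Samples of every group were run in separate experiments, but neither the labels nor the study's text says which replicate number belongs to which experiment, so it is not known whether the block is a pairing by experiment. The block changed no other member's call.

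The following log2 fold changes changed sign; under the chosen settings that of Nfkbia was -0.66 and the others lay between -0.16 and 0.03. Il18 in conventional DC-like cells was -0.013 without the filter, -0.031 with doublets kept and -0.020 at 20% mitochondrial UMIs or less. Il1b in distal convoluted tubule-like cells was -0.0029 by DESeq2 and -0.040 with the block. With the block, Casp1 was 0.017 and Il1b was 0.12 in macrophage-like cells. At 20% mitochondrial UMIs or less, Il18 was 0.012 in proximal tubule-like and Nfkbia 0.19 in distal convoluted tubule-like cells.

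Leaving out 1 kidney turned the sign of 25 fold changes, none of them called. In macrophage-like cells the lowest and highest values were -0.31 and 0.10 for Tlr2, -0.17 and 0.45 for Tlr7, -0.53 and 0.28 for Nlrp3, -0.46 and 0.48 for Casp1, and -0.54 and 0.84 for Il1b. In macrophage/monocyte-like cells they were -0.064 and 0.79 for Tlr7, -1.50 and 0.78 for Tlr9, -0.12 and 0.018 for Myd88, and -0.45 and 0.075 for Casp1. In non-classical monocyte-like cells they were -0.45 and 0.33 for Tlr2, -0.085 and 0.32 for Tlr7, -0.38 and 0.32 for Myd88, -0.12 and 0.55 for Nlrp3, and -0.049 and 0.92 for Tab2. In conventional DC-like cells they were -0.12 and 0.69 for Nlrp3, -0.83 and 0.49 for Il1b, and -0.038 and 0.056 for Il18. In B cell-like cells they were -0.85 and 0.067 for Tlr7, -0.70 and 0.81 for Myd88, and -0.33 and 0.43 for Casp1. In tubules Myd88 ran from -0.46 to 0.021 in collecting duct principal-like, from -0.58 to 0.11 in distal convoluted tubule-like and from -0.70 to 0.36 in loop of Henle-like cells. Il1b ran from -0.52 to 0.46 in distal convoluted tubule-like and Il18 from -0.36 to 0.15 in proximal tubule-like cells.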
